A study of Homo sapiens with 6 samples.

Results

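CD44, the main cell-surface receptor for hyaluronan, and the genes that make, cut and bind this polysaccharide were described in Cal27-shGRK2 and Cal27 cells. The members were taken by gene symbol, and 6 of the 7 named genes were found among the 18678 genes of the deposited table: CD44, HAS3, HYAL1, HYAL2, HYAL3 and HMMR. HAS2 was not analysed here. Cal27-shGRK2 cells are Cal27 cells with a short hairpin RNA that targets GRK2, a kinase of G protein-coupled receptors, and Cal27 is an established cell line from a human squamous cell carcinoma of the tongue. Both were grown in DMEM with fetal bovine serum and harvested before confluence, with no other treatment in the labels, which do not say whether Cal27 carried a control vector or how many hairpins or clones were used. The labels name 3 libraries per group, but the columns of Cal27-shGRK2 replicates 0 and 1 hold the same value in each of 18678 genes. These 2 columns count here as a single sample and are called the duplicated library. The comparison is therefore between 2 Cal27-shGRK2 and 3 Cal27 libraries. Separate cultures are not mentioned in the labels, so the p-values cover only the spread among these libraries, which may be technical.

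Hyaluronan is a long unbranched polymer of glucuronic acid and N-acetylglucosamine. HAS enzymes extrude it at the plasma membrane from UDP-sugars, hyaluronidases cut it, and CD44 and other proteins bind it. In stratified epithelium it fills the spaces between keratinocytes, and CD44 is abundant on basal cells and on many squamous carcinoma cells. CD44 exists in many splice forms, which a value per gene does not separate.

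Of these genes, CD44 was 2.07 times as high in Cal27-shGRK2 as in Cal27 cells and the synthase HAS3 was lower, while the 3 hyaluronidases and HMMR did not pass the test. The values are FPKM, fragments scaled by transcript length and library size, so levels can be compared between genes, but sequencing depth is unknown. Libraries summed to between 590163 and 644831 FPKM. GRK2 itself (listed as ADRBK1) had 17.3 and 16.6 FPKM in Cal27-shGRK2 and 55.3, 59.4 and 55.8 FPKM in Cal27, which checks the labels. A gene was tested where its mean over the 5 libraries reached 1 FPKM. The test was limma on log2(FPKM + 1), with p-values adjusted over all 13377 such genes and a threshold of 0.05. All 6 members passed this filter, HAS3 only through Cal27, where it was high. Of the 6 members, 1 rose, 1 fell (HAS3) and 4 did not pass the test. This is 33.3% called, beside 29.6% of all genes (15.0% higher and 14.6% lower), and so near the background. The median log2 fold change of the members was 0.05, against -0.01 for all genes tested.

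**Figure D1:**
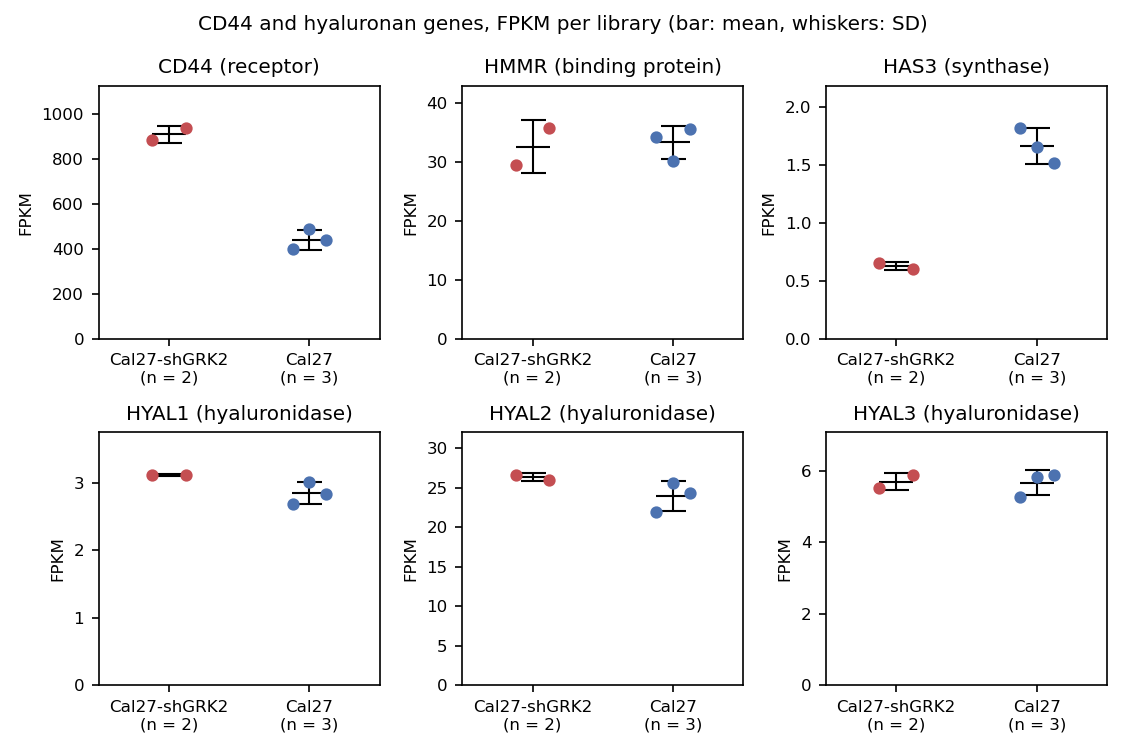
FPKM (vertical axes, each starting at 0) of the 6 genes in every distinct library, with Cal27-shGRK2 (2 libraries, red) left of Cal27 (3 libraries, blue). Horizontal bars are means and whiskers are SD. CD44 lies at 882 and 936 FPKM in Cal27-shGRK2 and at no more than 485 FPKM in Cal27, HAS3 is separated the other way, and the other panels differ little between groups.

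CD44 (ENSG00000026508.16) lies on chromosome 11 from 35138870 to 35232402 on the plus strand (GENCODE version 29, hg38), where 26 coding transcripts are annotated. Its level was 882 and 936 FPKM in the Cal27-shGRK2 libraries and 396, 485 and 437 FPKM in the Cal27 libraries. Both Cal27-shGRK2 libraries lay above every Cal27 library, and the gap between the groups was far wider than the spread within either. The mean was 909 ± 38.3 FPKM in Cal27-shGRK2 (SD, n = 2) and 440 ± 44.6 FPKM in Cal27 (SD, n = 3), a ratio of 2.07. The log2 fold change was 1.05 ± 0.08 (SE), with a 95% interval of 0.88 to 1.22 (limma adjusted p = 2.3e-07). An exact two-sided permutation test, which has 10 arrangements, gave p = 0.1, the smallest it can give. In these bulk samples, more cells with CD44 and more CD44 RNA per cell cannot be told apart.

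CD44 was among the most abundant transcripts of the table in both groups. By mean FPKM it ranked 104 of 18678 genes in Cal27-shGRK2 and 198 in Cal27. It made up 0.149% and 0.152% of the summed FPKM in the Cal27-shGRK2 libraries and 0.0646%, 0.0753% and 0.0702% in the Cal27 libraries. Its log2 fold change ranked 183 from the highest of 13377 genes. In the authors' deposited table CD44 is marked significant, with a log2 fold change of 1.02 and q = 6.1e-04. The antisense gene CD44-AS1 (listed as RP1-68D18.4) shares 84 exonic bases with CD44. It had 0.48 and 0.60 FPKM in Cal27-shGRK2 and 0.22, 0.16 and 0.12 FPKM in Cal27, far below CD44 in each library. No source used here states the strand setting of the counting, so reads of the shared stretch cannot be assigned to either gene.

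HAS3 (ENSG00000103044.10), a synthase of the plasma membrane and the only one of these genes that makes hyaluronan, lies on chromosome 16 from 69105564 to 69118719 on the plus strand. Its level was 0.648 and 0.602 FPKM in Cal27-shGRK2 and 1.81, 1.65 and 1.51 FPKM in Cal27. The groups did not overlap, and both Cal27-shGRK2 libraries lay under 1 FPKM. The mean was 0.625 ± 0.033 FPKM in Cal27-shGRK2 (SD, n = 2) and 1.66 ± 0.152 FPKM in Cal27 (SD, n = 3), 2.65-fold lower in Cal27-shGRK2. The added pseudocount of 1 compresses the change of so low a gene, and the log2 fold change was -0.71 ± 0.11 (SE), with a 95% interval of -0.94 to -0.48 (limma adjusted p = 1.2e-04). With a pseudocount of 0.1 it was -1.28 (adjusted p = 9.0e-05). The exact permutation p was 0.1, the smallest possible.

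The call of HAS3 has limits. HAS3 reached the filter, at a mean of 1.25 FPKM, only through the group in which it was high. In the authors' deposited table its log2 fold change of -1.52 is not significant (p = 0.32, q = 0.71), so the deposited test and limma differ on this gene. HAS3 shares 365 of 5289 exonic bases with CHTF8, a gene of the opposite strand that had 78.3 and 75.6 FPKM in Cal27-shGRK2 and 71.9, 76.9 and 74.4 FPKM in Cal27. CHTF8 did not pass the test, with a log2 fold change of 0.05 (limma adjusted p = 0.60). Its share in the HAS3 values was not tested.

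Short stretches from the windows before the RefSeq starts of both changed genes are shown because they hold the motifs found there. The 250 bases before the RefSeq start (GRCh38.p14) were searched on both strands for the GC box GGGCGG, the AP-1 element TGANTCA, the E-box CACGTG and the TATA box TATAAA. Among 35116 windows of the same length, these were found in 42.6%, 6.57%, 6.34% and 10.7%. The capitals mark the motif, at chr11:35138989-35139018 for CD44 and chr16:69107462-69107491 for HAS3, both on the plus strand.
CD44: cagcagagcacgGGGCGGgggcagaggggc
HAS3: gtgggaaagcggCACGTGggtgtggccggc
The CD44 window held GC boxes at 170 and 152 bases before the start, and the letters of the other motifs were not in it. The HAS3 window held a GC box at 223 bases and an E-box at 66 bases before the start. Both stretches lie inside the genes as GENCODE annotates them, since other transcripts start farther upstream, and that of CD44 lies in the 5′ end of such transcripts. The windows of HYAL1, HYAL3 and HMMR, which did not pass the test, also held GC boxes, and that of HYAL2 held none. These matches are descriptions of sequence and no binding was measured.

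The hyaluronidases HYAL3, HYAL1 and HYAL2 lie side by side within 30076 bases of chromosome 3, from 50292831 to 50322906 on the minus strand. None of the 3 passed the test. HYAL2, which is anchored at the cell surface and cuts long hyaluronan, had 26.7 and 26.0 FPKM in Cal27-shGRK2 and 21.9, 25.6 and 24.3 FPKM in Cal27. The Cal27-shGRK2 libraries were the highest, but they stood closer to the highest Cal27 library than the Cal27 libraries stood to each other. The log2 fold change was 0.13 ± 0.07 (SE), with a 95% interval of -0.02 to 0.29 (limma adjusted p = 0.19). After rescaling the libraries to the same total it was 0.19 and passed narrowly (adjusted p = 0.0495).

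HYAL1, the acid hyaluronidase of lysosomes, had 3.12 and 3.11 FPKM in Cal27-shGRK2 and 2.69, 3.02 and 2.83 FPKM in Cal27. The Cal27-shGRK2 values lay just above those of Cal27, with a log2 fold change of 0.10 ± 0.09 (SE) and a 95% interval of -0.10 to 0.30 (limma adjusted p = 0.47). HYAL3, a family member of less settled enzyme activity, had 5.52 and 5.88 FPKM in Cal27-shGRK2 and 5.26, 5.84 and 5.90 FPKM in Cal27. Its groups overlapped, with a log2 fold change of 0.01 ± 0.08 (SE) and a 95% interval of -0.17 to 0.19 (limma adjusted p = 0.95). The 3 intervals lie between -0.17 and 0.30, below the interval of CD44. The authors' deposited table marks none of them as significant (q = 0.32 for HYAL1, 0.59 for HYAL2 and 0.995 for HYAL3).

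HYAL2 was 8.54 and 8.35 times HYAL1 in the Cal27-shGRK2 libraries and 8.16, 8.48 and 8.58 times HYAL1 in the Cal27 libraries. HYAL2 was 4.82 and 4.42 times HYAL3 in Cal27-shGRK2 and 4.16, 4.38 and 4.12 times HYAL3 in Cal27. It was 41.1 and 43.1 times HAS3 in Cal27-shGRK2 and 12.1, 15.5 and 16.1 times HAS3 in Cal27. The ratio to HYAL1 overlapped between groups, the ratio to HYAL3 was narrowly apart, and the ratio to HAS3 was far apart. HYAL3 shares 248 of 2030 exonic bases with NAA80 (listed as NAT6), and HYAL2 shares 509 of 4545 with TUSC2, both on the same strand, so the authors' software could split reads between them. NAT6 had 3.37 and 3.54 FPKM in Cal27-shGRK2 and 2.73, 3.19 and 2.92 FPKM in Cal27, and neither NAT6 nor TUSC2 passed the test (limma adjusted p = 0.18 and 0.24).

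HMMR (ENSG00000072571.19, chromosome 5 from 163460203 to 163491945, plus strand) encodes a hyaluronan-binding protein that also works inside the cell at the mitotic spindle. It had 29.4 and 35.7 FPKM in Cal27-shGRK2 and 34.2, 30.1 and 35.5 FPKM in Cal27. The 2 Cal27-shGRK2 libraries were the lowest and the highest of all 5. The log2 fold change was -0.03 ± 0.09 (SE), with a 95% interval of -0.23 to 0.17 (limma adjusted p = 0.81). HMMR was the member that varied most within Cal27-shGRK2, with a coefficient of variation of 13.8%, where the others had 0.26% to 5.22%.

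The order of the levels per length was the same in both groups, namely CD44, HMMR, HYAL2, HYAL3, HYAL1 and HAS3. No neighbours in that order overlapped within either group. The closest pair was HMMR and HYAL2, with a ratio of mean FPKM of 1.24 in Cal27-shGRK2 and 1.39 in Cal27. CD44 stood 27.9 times above HMMR in Cal27-shGRK2 and 13.2 times above it in Cal27. HYAL1 stood 4.98 times above HAS3 in Cal27-shGRK2 and 1.71 times above it in Cal27. In 4 of the 6 members (66.7%) the groups had no overlap, beside 53.3% of all genes tested.

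**Figure D2:**
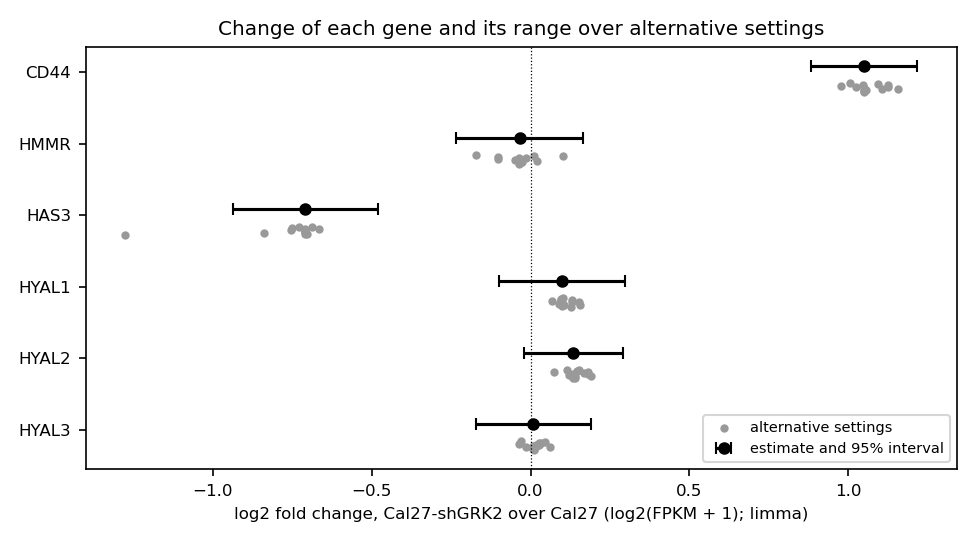
Log2 fold change of Cal27-shGRK2 over Cal27 (horizontal axis, log2(FPKM + 1)) for the 6 genes, with black points and 95% intervals from limma on 2 and 3 libraries. Grey points are the estimates under up to 14 alternative settings. CD44 stays between 0.98 and 1.16 and HAS3 between -1.28 and -0.67, while HMMR and HYAL3 lie on both sides of 0.

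The authors' value per condition equalled the mean of the 3 columns in all 13339 Cal27 genes with a value of at least 1 FPKM (relative tolerance 1e-04), but in only 44 of 13307 such genes in Cal27-shGRK2. If that value is also a mean of 3 libraries, the missing Cal27-shGRK2 library had 859 FPKM of CD44 and 0.484 FPKM of HAS3. Both lie outside the Cal27 ranges, on the same side as the deposited Cal27-shGRK2 libraries. It would hold 28.3 FPKM of HYAL2, 3.61 FPKM of HYAL1, 5.80 FPKM of HYAL3 and 32.2 FPKM of HMMR. With this library added, CD44 had a log2 fold change of 1.02 (limma adjusted p = 6.9e-08) and HAS3 of -0.75 (2.2e-05), and HYAL2 did not pass (0.17, adjusted p = 0.052).

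Among the genes that supply UDP-sugars to the synthases, 3 of 10 tested rose and 0 fell (median log2 fold change 0.07). Of all genes tested, 15.0% rose and 14.6% fell (median -0.01), and no list was tested as a set. UAP1, which completes UDP-N-acetylglucosamine, had 43.3 and 44.3 FPKM in Cal27-shGRK2 and 28.7, 28.1 and 28.9 FPKM in Cal27. The groups were well apart, and its log2 fold change was 0.60 ± 0.06 (SE, limma adjusted p = 2.3e-06). GFPT2, an entry enzyme of the hexosamine pathway, rose by 0.28, and UGP2, which makes UDP-glucose, rose by 0.23. Both calls lay near the threshold. That of GFPT2 was lost with no filter (adjusted p = 0.053), with limma without trend (0.068) and on leaving out Cal27 replicate 0 (0.074), the duplicated library (0.071) or Cal27-shGRK2 replicate 2 (0.20), with log2 fold changes of 0.21 to 0.32. That of UGP2 was lost with no filter (adjusted p = 0.059), with limma without trend (0.091) and on leaving out Cal27 replicate 1 (0.066), Cal27 replicate 2 (0.080), the duplicated library (0.0501) or Cal27-shGRK2 replicate 2 (0.25), with log2 fold changes of 0.16 to 0.29. UGDH, which oxidises UDP-glucose to UDP-glucuronic acid, did not pass (log2 fold change 0.06, adjusted p = 0.56).

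Of the other breakdown genes, 2 of 4 tested rose and 0 fell, with a median of 0.22. Beside them, 15.0% of all genes tested rose and 14.6% fell. TMEM2 (also named CEMIP2), reported as a hyaluronidase of the cell surface, had 30.9 and 28.7 FPKM in Cal27-shGRK2 and 20.1, 21.3 and 19.9 FPKM in Cal27. Both Cal27-shGRK2 libraries were higher, with a log2 fold change of 0.52 ± 0.07 (SE, limma adjusted p = 2.7e-05). HEXA, a subunit of the lysosomal hexosaminidases, rose by 0.25, a call lost without the duplicated library (adjusted p = 0.076). CEMIP, another hyaluronan depolymerase, lay under the filter at 0.39 to 0.45 FPKM in Cal27-shGRK2 and 0.34 to 0.64 FPKM in Cal27.

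Of the other hyaluronan-binding genes, 3 of 5 tested rose and 1 fell, with a median of 0.29. Beside them, 15.0% of all genes tested rose and 14.6% fell. TLR4, an innate immune receptor reported to respond to hyaluronan fragments, had 4.48 and 4.85 FPKM in Cal27-shGRK2 and 1.67, 2.01 and 2.09 FPKM in Cal27. The groups were apart, with a log2 fold change of 0.96 ± 0.10 (SE, limma adjusted p = 3.0e-06). The link protein HAPLN3 rose by 0.38, a call lost without the duplicated library (adjusted p = 0.059). HABP4 rose by 0.29, lost on leaving out Cal27 replicate 0 (adjusted p = 0.062), Cal27 replicate 2 (0.11), the duplicated library (0.11) or Cal27-shGRK2 replicate 2 (0.17). C1QBP, a mostly mitochondrial protein, fell by 0.22, lost without the duplicated library (adjusted p = 0.24). Layilin, LAYN, a transmembrane hyaluronan receptor named after its values were seen, had 1.52 and 2.08 FPKM in Cal27-shGRK2 and 0.43, 0.32 and 0.33 FPKM in Cal27. It was under the filter of 1 FPKM. With no filter it passed, with a log2 fold change of 1.04 ± 0.11 (SE, limma adjusted p = 1.8e-04), and the authors' deposited table marks it as significant (log2 fold change 2.29, q = 6.1e-04).

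Of the partners of CD44, 4 of 15 tested rose and 0 fell, with a median of 0.08. Beside them, 15.0% of all genes tested rose and 14.6% fell. CD74, which pairs with CD44 as a receptor for the cytokine MIF, had 366 and 397 FPKM in Cal27-shGRK2 and 227, 258 and 230 FPKM in Cal27 (log2 fold change 0.68 ± 0.07, SE, limma adjusted p = 2.1e-06). NF2, the merlin gene, whose protein binds the tail of CD44, rose by 0.34. Moesin, MSN, which links CD44 to actin, rose by 0.24, lost on leaving out Cal27 replicate 0 (adjusted p = 0.052), Cal27 replicate 2 (0.056), the duplicated library (0.051) or Cal27-shGRK2 replicate 2 (0.17). The sheddase ADAM17 rose by 0.19, a call lost without any one of the 5 libraries (adjusted p = 0.073 to 0.21). The epithelial splicing regulators ESRP1 and ESRP2, which act on CD44 exons, had log2 fold changes of 0.16 and 0.06 that did not pass (adjusted p = 0.086 and 0.53).

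Among 15 mitotic genes set beside HMMR, 13 did not pass, 1 rose and 1 fell (median 0.01), where 15.0% and 14.6% of all genes tested did. The spindle partners of HMMR, TPX2 and AURKA, had log2 fold changes of 0.12 and 0.02 (limma adjusted p = 0.21 and 0.80). BRCA1 rose by 0.21, lost on leaving out Cal27 replicate 1 (adjusted p = 0.065), Cal27 replicate 2 (0.10), the duplicated library (0.11) or Cal27-shGRK2 replicate 2 (0.18). BIRC5 fell by 0.19, lost without Cal27 replicates 0 or 1 (adjusted p = 0.065 and 0.087), without the duplicated library (0.36) and under rescaling to a common total (0.070).

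Among 8 tested neighbours of the HYAL genes, 6 did not pass, 1 rose and 1 fell (median 0.08). The shares of all genes tested were 15.0% and 14.6%. SEMA3B, a secreted semaphorin, had 2.78 and 2.68 FPKM in Cal27-shGRK2 and 4.12, 4.03 and 4.23 FPKM in Cal27 (log2 fold change -0.46 ± 0.09, SE, limma adjusted p = 9.7e-04). RASSF1 rose by 0.20, lost on leaving out Cal27 replicate 0 (adjusted p = 0.057), Cal27 replicate 2 (0.073), the duplicated library (0.18) or Cal27-shGRK2 replicate 2 (0.093).

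**Figure D3:**
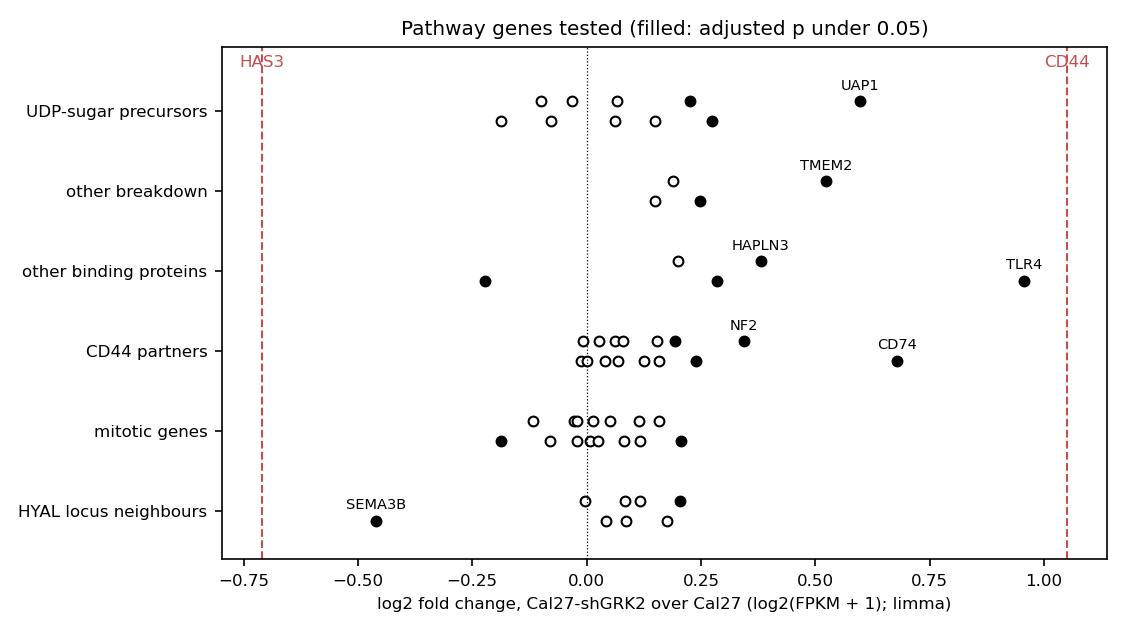
Log2 fold change of Cal27-shGRK2 over Cal27 (horizontal axis, log2(FPKM + 1)) for each tested gene of 6 pathway lists (rows), filled where the limma adjusted p is under 0.05, with names at a change over 0.3. Red dashed lines mark CD44 (1.05) and HAS3 (-0.71), and no tested gene of these lists lies outside them on this scale. The pseudocount of 1 compresses the change of TLR4, whose ratio of mean FPKM was 2.42, above the 2.07 of CD44.

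By their profile over the 5 libraries, the genes most like CD44 among 9377 compared were SLC12A7, a potassium and chloride transporter, CDC42EP1, an effector of the GTPase CDC42, and TMEM132A, a membrane protein. Likeness was the Euclidean distance between log2(FPKM + 1) values centred on each gene's mean, which was 0.052, 0.064 and 0.076. Their mean levels in Cal27-shGRK2 were between 2.05 and 2.14 times those in Cal27. The genes most like HAS3 included the thrombin receptor F2R and the matrix protein TGFBI, at distances of 0.081 and 0.098. Their mean FPKM was 1.76-fold and 1.72-fold lower in Cal27-shGRK2, where that of HAS3 was 2.65-fold lower, since the pseudocount of 1 compresses the change of HAS3 on the scale of the distance. With 2 groups of libraries, such a distance mostly ranks genes by the size of their change.

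Several markers of squamous cells and of other cell types differed between the groups, while the sums of the fibroblast markers overlapped. All 8 squamous and epithelial markers were detected, 6 lower and 2 higher (EPCAM by 0.45 and CDH1 by 0.57). Of all genes tested, 14.6% were lower and 15.0% higher. The 8 markers summed to between 1416 and 1444 FPKM in Cal27-shGRK2 and between 2893 and 3221 FPKM in Cal27. Most of this sum was KRT5 (740 and 773 FPKM in Cal27-shGRK2 and 2167.2, 2322.3 and 2072.5 FPKM in Cal27). The basal keratin KRT14 was at 0.23 and 0.16 FPKM in Cal27-shGRK2 and between 16.5 and 20.9 FPKM in Cal27. Of 8 leukocyte markers 4 were in the table, and they summed to between 5.86 and 6.13 FPKM in Cal27-shGRK2 and between 2.15 and 3.17 FPKM in Cal27. Only CD68 was tested (1.29 higher), with 4.30 and 3.52 FPKM in Cal27-shGRK2 and 0.77, 1.18 and 1.09 FPKM in Cal27. CSF1R and ITGAM, under the filter, were also higher, without overlap. With no filter CSF1R passed narrowly (limma adjusted p = 0.0484) and ITGAM did not pass (0.0945). CD14, under the filter, was lower in mean with overlapping groups, at 0.53 and 0.73 FPKM in Cal27-shGRK2 and 0.71, 0.79 and 1.15 FPKM in Cal27. Of 9 fibroblast markers 4 were in the table, summing to between 4.38 and 4.46 FPKM in Cal27-shGRK2 and between 4.35 and 4.71 FPKM in Cal27. Most of this sum was COL1A1 (3.11 and 2.87 FPKM in Cal27-shGRK2 and 3.48, 3.73 and 3.80 FPKM in Cal27). COL1A1 was lower but did not pass the test (limma adjusted p = 0.078). PDGFRB, under the filter, went the other way, with 0.62 and 0.60 FPKM in Cal27-shGRK2 and 0.15, 0.29 and 0.10 FPKM in Cal27, and passed with no filter (limma adjusted p = 0.0090). The single endothelial marker in the table, CDH5 of 5 listed, had 7.01 and 6.80 FPKM in Cal27-shGRK2 and between 3.50 and 3.97 FPKM in Cal27. No listed marker in the table was at 0 in all libraries. The part of these markers in the CD44 and HAS3 differences was not tested.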

How the data were processed

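Stranded mRNA libraries of Cal27-shGRK2 and Cal27 cells were analysed by the authors. Per the submitters' processing notes, the build was hg38 and the tools were Cuffdiff 2.2.1, TopHat2 2.1.0 and Bowtie2 2.2.6, with no role stated. No source used here names the gene annotation. The deposited file gives FPKM per library, the authors' FPKM per condition, a log2 fold change, a test statistic (score), and p-values and q-values, per the file headers. Depth is unknown. Values of 0.0001 or less were read as 0. Gene identifiers were matched to GENCODE version 29 (18503 of 18678).

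Tests used limma 3.58.1 (R 4.3.3; trend and robust empirical Bayes, two-sided, Benjamini-Hochberg over all genes, 3 residual degrees of freedom). The script was tested on simulated data. Members and 10 gene lists were chosen with earlier results of these data known. Named are the members, up to 4 called genes per list and direction, genes overlapping a member, GRK2 and the 3 genes most like each called member. Of the genes this rule takes, 1 is not reported here. Where values of other genes are given, they were chosen after the values were seen.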

Additional observations from a re-analysis of the deposited data

How the results depend on the processing

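CD44 and HAS3 kept their direction and their call under each alternative that could be run (14 for CD44, 13 for HAS3): log2 fold changes of 0.98 to 1.16 (highest adjusted p = 2.8e-04) and -1.28 to -0.67 (highest adjusted p = 0.0048). With a mean of at least 5 FPKM, HAS3 and HYAL1 were not tested and 1 member was called. Under rescaling to a common total, which moved the median of all genes to 0.045, HYAL2 passed (0.19, adjusted p = 0.0495) and HMMR turned to 0.020. Under quantile normalization HYAL3 turned to -0.016. Without 1 library each, HYAL3 ranged from -0.036 to 0.046 and HMMR from -0.17 to 0.10, never past the threshold, and the calls over all genes from 2600 (without the duplicated Cal27-shGRK2 library) to 4028. The causes were not tested.

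The replicate numbers are shared by the groups, but which number the duplicated library belongs to is unknown. Only 2 same-numbered pairs remain, whose deviations correlated at 0.0801 and 0.0167 across genes. Differently numbered pairs had values from -0.0801 to 0.0714. The deviations of 2 Cal27-shGRK2 libraries from their mean mirror each other, so these values are not independent and cannot decide whether the numbers mark pairs. In a fit with the replicate block, Cal27 replicate 1 has no partner. The log2 fold changes of CD44 and HAS3 therefore equalled those without that library. With the replicate block there were 3960 calls, CD44 had 1.12 and HAS3 -0.71. UGP2, HABP4, ADAM17, BIRC5, BRCA1 and RASSF1, with adjusted p of 0.0501 to 0.11, and KRT6A (0.19) did not pass in that fit. C1QBP, MSN, ADAM17, BIRC5 and BRCA1 did not pass with limma without trend (adjusted p = 0.052 to 0.12), nor ADAM17 and BIRC5 with no filter (0.058 and 0.074), nor ADAM17 under quantile normalization (0.061). Of 168 counts of pathway genes called under alternatives, 42 moved by over 1.5 times, most of them counts of 4 or fewer. Depth cannot be recovered from FPKM.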
